A study of Mus musculus with 12 samples.

Results

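The comparison was between female primordial germ cells (PGCs) taken from the genital ridges of E15.5 mouse embryos and mouse embryonic fibroblasts (MEFs) in culture. There were 3 arrays of each, which are 6 of the 12 arrays of the series. The members were the arrays titled E15.5 PGC and MEF, chosen by title alone. The PGCs came from female MCH x C57BL6/J embryos that carried an Oct4_delta_PE-GFP transgene, a germ cell reporter. The MEFs were male, from a cross of C57BL6/J (Vasa::RFP Tg) with C57BL6/J (Oct4_delta_PE-GFP Tg) mice, and are labelled as control MEFs in a study of treatments meant to turn on germ cell genes in fibroblasts. The Oct4_delta_PE-GFP transgene was thus common to both groups, whereas the Vasa::RFP transgene is listed for the MEFs alone. Sex, strain, tissue, culture and the age of the embryos used (a younger stage for the MEFs) differed together between the groups, and their parts in any difference cannot be told apart. The series' design text calls the 3 samples of each cell type biological replicates, and how the PGCs were separated from the gonad is not given in the sources used here.

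At E15.5 the germ cells of a female gonad are in the prophase of meiosis. Retinoic acid has by then induced Stra8, the chromosomes have been bound into axes by meiotic cohesin, double-strand breaks made by Spo11 are repaired against the homologue, and the synaptonemal complex zips the homologues together. In somatic cells most genes of this programme are shut, many by DNA methylation of their promoters or by repressor complexes that contain Max, Mga and E2f6. Fibroblasts are mesenchymal cells that build extracellular matrix, and in culture they divide on a rigid surface in serum and take on contractile features.

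Levels are the background-subtracted log2 signal of a gene's brightest probe minus the 75th percentile of the array, so that a level of 0 lies at that percentile and a difference of 1 is 2-fold. Levels of single genes were not set against each other, because each probe has its own response, and only sums over markers and medians over chromosomes combine them. Of 19714 genes with a named probe, 17362 were tested with limma. These were the genes whose probe was flagged as clearly brighter than background on 3 of 3 PGC arrays, 3 of 3 MEF arrays or both. Changes are the PGC mean minus the MEF mean on the log2 scale, given with the SE of the fit. At an adjusted p under 0.001 and at least a 2-fold change, 5518 genes (31.8%) were higher in PGCs than in MEFs, 4368 (25.2%) were lower and 7476 did not pass, so that 56.9% were called in either direction. Among them, 1033 genes were higher and 1167 lower by over 16-fold. The 3 PGC arrays and the 3 MEF arrays did not overlap for 14667 genes (84.5%), the 9886 called genes included, and for this reason separation of the groups alone says little about any single gene. Genes called higher that were not above background on any MEF array are here called switched on, and there were 530 of them (3.05%). The genes called lower that were not above background on any PGC array, here called switched off, numbered 235 (1.35%).

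Replicates were close. The correlation between arrays was 0.996 to 0.998 within PGCs and 0.994 to 0.996 within MEFs over 15140 genes, against 0.708 to 0.730 between the groups, and the median SD of a gene was 0.125 in PGCs and 0.146 in MEFs. PGC replicates 2 and 3 lay on 1 slide with MEF replicates 2 and 3, whereas PGC replicate 1 and MEF replicate 1 were each the only array of the comparison on a slide. Within the shared slide none of the 9886 called genes changed direction, and 4973 of those higher and 3900 of those lower were called again. The balance of the calls depended on the scaling. The share of called genes that were higher in PGCs was 55.8%, but it was 50.1% after quantile normalization, 43.5% with median scaling and 44.3% with spike-in scaling. With another background correction (normexp with an offset of 50) before quantile normalization, 4204 genes were higher and 4211 lower. Median and spike-in scaling moved the median change of all genes, 0.30, by -0.48 and -0.42, and a call lost under these 2 settings is named where it matters.

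**Figure D1:**
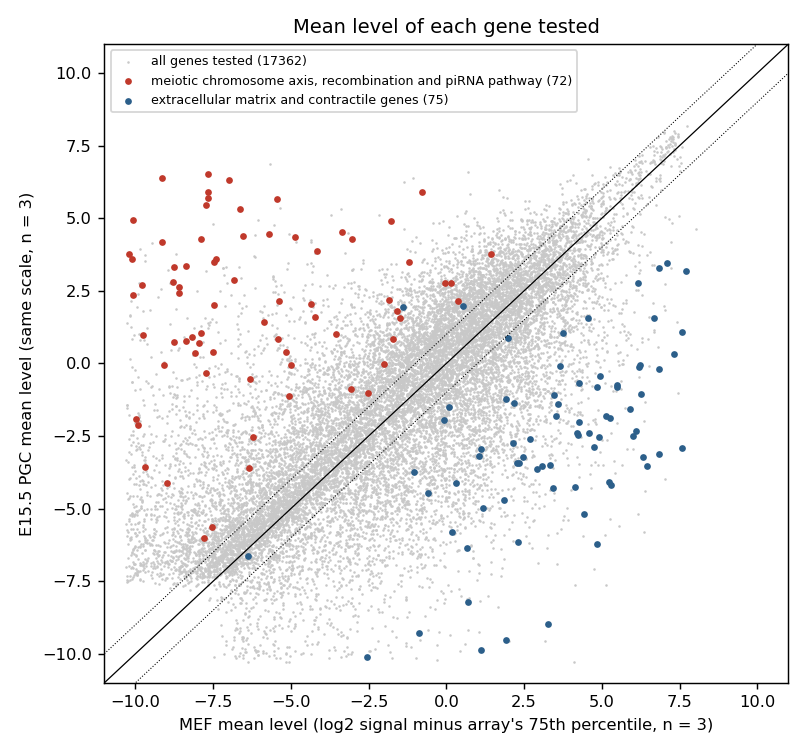
Mean level in E15.5 PGCs (vertical axis) against MEFs (horizontal axis), both as log2 signal minus the 75th percentile of the array, for the 17362 genes tested. The solid line marks equal levels and the dotted lines a 2-fold difference, and the red genes of meiosis and the piRNA pathway lie above it whereas the blue matrix and contractile genes lie below it with a few exceptions.

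The labelled cell types were checked against their markers. All 8 germ cell markers were higher in PGCs, with a summed linear level of 131 to 162 on the PGC arrays and of 0.155 to 0.170 on the MEF arrays. All 12 fibroblast markers were lower in PGCs, with a summed level of 15.0 to 15.6 on PGC arrays and of 600 to 858 on MEF arrays, although all 12 were also above background on every PGC array. Genes of the sex chromosomes were set beside the labelled sexes. Ddx3y, a Y-linked RNA helicase, was not above background on any PGC array and was at 0.48, 0.55 and 0.26 in MEFs, a difference of at least 338-fold. Eif2s3y, another Y-linked gene, was lower too, yet its probe was above background on all PGC arrays, at -4.41, -4.43 and -4.17, against 1.51, 1.38 and 1.45 in MEFs. Xist, the RNA that silences an X chromosome, was at -3.98, -3.65 and -4.07 in PGCs and at -7.30, -7.55 and -7.71 in MEFs, where it was above background on 1 of 3 arrays. Here and below, "at least" is the mean of the brighter group over the dimmest signal called above background on each array of the other group, or over the probe's own signal where that was higher.

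Germ cell identity genes were higher in PGCs as a rule. Of 22 such genes tested, 17 were higher, 1 was lower and 4 did not pass, with a median change of 4.09. On all 3 MEF arrays 15 of the 22 were above background, and the others entered the test through PGCs. With the normexp background correction before quantile normalization 13 were higher and the median was 2.11. Dazl, an RNA-binding protein that licenses germ cells for meiosis, was at 4.21, 3.70 and 3.91 on the PGC arrays, against -9.23, -10.12 and -10.22 on the MEF arrays, none of them above background. It was therefore at least 3812-fold higher in PGCs (limma adjusted p = 2.62e-10). Ddx4, the germ cell RNA helicase also called Vasa, was at 4.60, 4.43 and 4.49 in PGCs and at -3.09, -3.02 and -3.35 in MEFs, a change of 7.66 ± 0.18 (SE; limma adjusted p = 3.72e-11). Kit, the receptor by which germ cells receive survival signals, was higher by 7.32 ± 0.18, and its ligand gene Kitl differed by -0.09 ± 0.24 and did not pass. Dppa3, a chromatin protein of early germ cells and oocytes, was at -1.37, -2.05 and -1.87 in PGCs, against -6.95, -8.12 and -6.75 in MEFs. The specification factors were mixed. Prdm14 was at least 6.60-fold higher and Tfap2c, an early factor, was higher by 4.08, while Prdm1, with a difference of 0.47 ± 0.21, and Nanos3, with -0.24 ± 0.09, did not pass. Dnd1, an RNA-binding protein that protects germ cells, was higher by 1.31 ± 0.14, a call lost with median and with spike-in scaling and within the shared slide. Ifitm3, an antiviral membrane protein that was first used as a marker of nascent germ cells, was the member that was lower, at 1.18, 1.72 and 2.07 in PGCs and at 4.28, 4.75 and 4.71 in MEFs. Sall4 did not pass by its brightest probe (-0.36 ± 0.15), while another of its probes was 6.56 higher, so the gene has no settled value.

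Pluripotency genes, many of which germ cells keep in part, split by gene. Pou5f1 was at -2.25, -2.44 and -2.35 in PGCs and at -7.63, -7.05 and -6.46 in MEFs, where 2 of 3 arrays were above background. Lin28b, which blocks maturation of let-7 microRNAs, was higher by 8.51 ± 0.48, and Tfcp2l1 by 6.69 ± 0.30. Zfp42, also called Rex1, was at 0.66, 0.46 and 0.52 in PGCs and at -9.14, -10.51 and -6.19 in MEFs, where 1 of 3 arrays was above background, and its call was lost within the shared slide. Nanog, at -0.29 ± 0.13, and Sox2, at 0.35 ± 0.64, did not pass. Myc was lower (-6.09), as were Tbx3 (-5.20), Klf4 (-3.23) and Klf2 (-2.31), given as changes, while Mycn, the paralogue of Myc, was 2.34 higher. In all, 11 of 21 genes were higher (52.4%) and 4 lower (19%), against 31.8% and 25.2% of all genes tested. With quantile and with spike-in scaling 9 were higher, and within the shared slide 8, with 4 lower each time. On all 3 MEF arrays 17 of the 21 were above background.

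**Figure D2:**
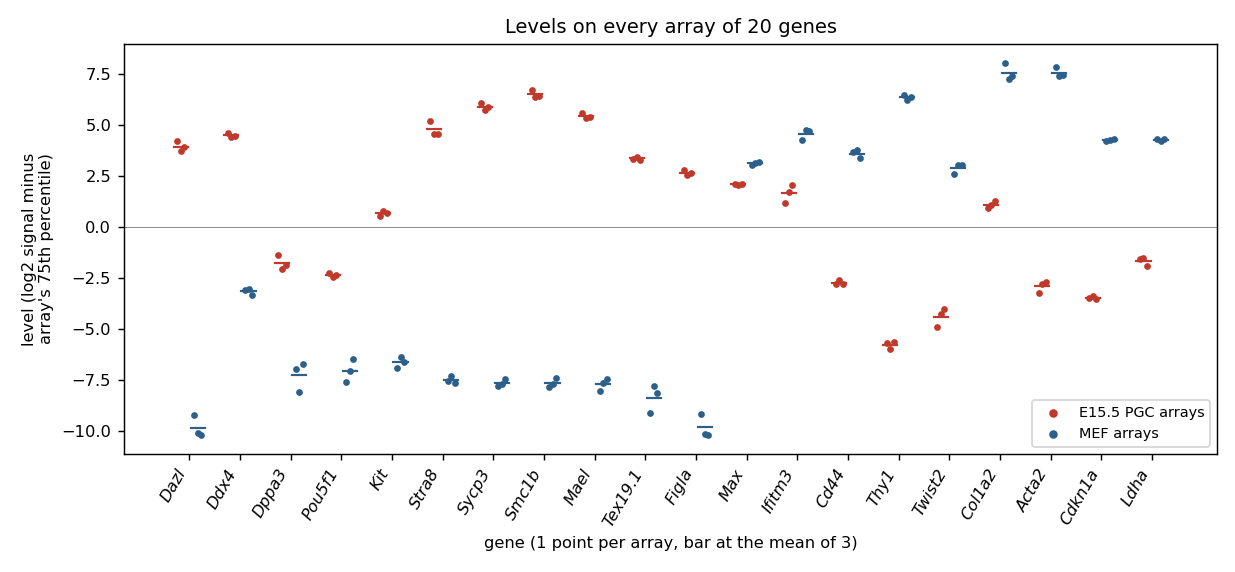
Level on each array (vertical axis, log2 signal minus the array's 75th percentile) of 20 genes along the horizontal axis, with E15.5 PGC arrays in red to the left of MEF arrays in blue and a bar at the mean of 3. Replicates sit close together next to the distance between groups, and Max, the gene with the smallest distance, is at 2.11, 2.08 and 2.13 in PGCs and at 3.03, 3.14 and 3.21 in MEFs.

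Of 22 genes of retinoic acid handling and meiotic entry, 7 were higher in PGCs, 11 were lower and 4 did not pass. The share higher was 31.8%, as over all genes tested, and the share lower 50%, against 25.2%. Stra8, which the retinoic acid signal induces and which starts meiosis, was at 5.22, 4.55 and 4.59 in PGCs, against -7.54, -7.32 and -7.64 in MEFs, where 2 of 3 arrays were above background (change 12.29 ± 0.34, limma adjusted p = 1.2e-10). Meioc, which holds cells in meiotic prophase, was at least 3304-fold higher by its brightest probe, and another of its probes had a change of 9.67. Its partner Ythdc2 was higher by 3.31 ± 0.12. Zglp1, a further gene of meiotic entry, differed by 0.30 and did not pass. The receptor Rarg was at -0.76, -0.70 and -0.58 in PGCs and at 3.23, 3.27 and 3.24 in MEFs, and the receptor Rara (-2.11) and the carrier Crabp1 (-5.63) were lower. Cyp26b1, the enzyme that degrades retinoic acid and shields male germ cells from it, was lower (-3.87). The synthesizing enzymes were divided, with Aldh1a2 higher by 3.12 ± 0.18 and Aldh1a3 lower (-4.44).

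Genes of the synaptonemal complex and the chromosome axis had the highest median change of the 35 lists. Of 22 genes listed, 18 had a probe and were tested, and all 18 were higher, with a median change of 12.06, or 11.31 with switched-on genes set at their lower bound, against 0.30 over all genes. Only 7 of the 18 were above background on all 3 MEF arrays, and the others entered the test through PGCs. Syce3, a central element of the complex, was at 6.43, 6.32 and 6.36 on PGC arrays and at background on MEF arrays, the largest lower bound of all switched-on genes at 20520-fold. Sycp1, the transverse filament that spans the gap between homologues, was at 5.11, 4.80 and 4.93 in PGCs, at least 7657-fold above MEFs. Sycp3, of the lateral element, was at 6.09, 5.72 and 5.90 in PGCs and at -7.83, -7.71 and -7.48 in MEFs, with 2 of 3 MEF arrays above background. The axis protein Hormad1 and the X-linked Tex11 were higher by at least 2968-fold and 4454-fold by their brightest probes. Another probe had a change of 11.63 for Hormad1 and of 8.48 for Tex11. Cohesin subunits of meiosis were among them, Smc1b with a change of 14.17 ± 0.16 where MEFs were above background on 2 of 3 arrays, Stag3 with 11.08 ± 0.19 and Rec8, the meiotic kleisin, with 3.37 ± 0.25. Rec8 was above background in all MEF arrays, at -1.80, -1.47 and -1.49. Trip13, the ATPase that strips HORMA proteins from axes and also serves mitosis, was the member that differed least, by 1.77 ± 0.15.

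All 29 genes of recombination and telomere attachment tested were higher, with a median change of 6.68, and 21 of them were above background on every MEF array. Dmc1, the meiotic recombinase, was at 3.41, 3.20 and 3.37 in PGCs and not above background on any MEF array, at least 2489-fold apart. Spo11, which makes the breaks, was higher by 9.49 ± 0.63 with 1 of 3 MEF arrays above background, and Prdm9, the methyltransferase that chooses where they fall, was at 3.90, 3.73 and 4.02 in PGCs against -4.20, -3.96 and -4.35 in MEFs. Hfm1, a helicase of crossover formation, was higher by 10.94 ± 0.46, and Mei1 by 10.14 ± 0.13. Brca2, which loads recombinases, was 6.68 ± 0.13 higher, while the mismatch repair gene Mlh3 was 1.52 ± 0.08 higher. Majin, which ties telomeres to the nuclear envelope, was at least 1738-fold higher.

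The piRNA pathway, which guards germ cells against transposons with small RNAs bound to PIWI proteins, was higher in PGCs throughout. All 25 genes tested were called, with a median change of 8.65, or 7.90 with switched-on genes at their lower bound. Only 8 of the 25 were above background on all 3 MEF arrays, and 10 were switched on. Mael was at 5.61, 5.37 and 5.40 in PGCs and at -8.07, -7.64 and -7.47 in MEFs. For Mael and for the PIWI gene Piwil2, higher by 8.65 ± 0.16, 2 of 3 MEF arrays were above background. Piwil1, which acts later in the male, was at -4.32, -4.01 and -4.08 in PGCs, at least 14.1-fold above MEFs. Mov10l1, the helicase that starts piRNA processing, was higher by at least 1600-fold, Stk31 by at least 3391-fold and Rnf17 by at least 1478-fold. Tudor-domain genes ranged widely. Tdrd5 was at least 433-fold higher, and the changes of Tdrd9 (1 of 3 MEF arrays above background) and Tdrd7 were 9.08 ± 0.42 and 2.34 ± 0.11. Tdrd6 (2 of 3 MEF arrays) was higher by 1.92 ± 0.33, a call lost with spike-in scaling, and Gtsf1l was likewise not called there. Tex19.1, a genome defence gene kept silent in soma by promoter methylation, was at 3.33, 3.45 and 3.31 in PGCs and above background on no MEF array, at least 2225-fold apart. Tex101, a germ cell surface protein, showed the largest increase among named genes above background on all 6 arrays, at 6.51, 6.11 and 6.28 in PGCs against -7.16, -6.98 and -6.86 in MEFs.

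The promoters of Dazl, Tex19.1 and Sycp1 are shown because the study measured their DNA methylation and histone marks in fibroblasts. The sequences are the 150 bases before the start in the RefSeq annotation of GRCm38.p6, 5′ to 3′ on the strand of the gene. Capitals mark CACGTG, the E-box letters read by Max heterodimers, and GCGGGA or its reverse complement TCCCGC, the letters read by E2f6.
Dazl (chr17:50293621-50293770, minus strand): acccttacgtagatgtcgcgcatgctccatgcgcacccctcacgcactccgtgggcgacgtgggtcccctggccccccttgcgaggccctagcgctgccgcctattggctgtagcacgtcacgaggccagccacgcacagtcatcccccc
Tex19.1 (chr11:121145993-121146142, plus strand): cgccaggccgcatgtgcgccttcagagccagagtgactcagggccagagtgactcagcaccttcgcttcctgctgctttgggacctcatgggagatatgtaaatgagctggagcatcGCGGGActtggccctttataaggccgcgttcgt
Sycp1 (chr3:102936101-102936250, minus strand): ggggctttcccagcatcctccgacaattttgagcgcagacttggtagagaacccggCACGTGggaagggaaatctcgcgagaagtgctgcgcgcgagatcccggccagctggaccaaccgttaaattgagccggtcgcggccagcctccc
In 250 bases before the start, Sycp1 held 1 CACGTG, Tex19.1 held 1 GCGGGA and Dazl held neither. The same windows held 20 CpG pairs in Dazl, 15 in Tex19.1 and 17 in Sycp1. The median was 6 over all 27025 genes with a promoter and 14 over those tested, each gene taken at its richest promoter.

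CACGTG stood before more of the synaptonemal complex and piRNA genes than before genes at large. It was found in 7 of 16 synaptonemal complex genes with a promoter (43.8%) and 8 of 20 such piRNA genes. Over all 27025 genes with a promoter the share was 6.86%, and over the 13786 tested genes with a promoter 8.87%. A gene was counted if any of its promoters held the word, so genes with several starts had more chances. The word reads the same on both strands, and it can share at most 1 base with the E2f6 letters. Lists of other roles held it too. The counts were 7 of 20 genes for DNA methylation (35.0%), 4 of 16 for cholesterol synthesis and 6 of 27 for cyclins and p53 (22.2%). CACGTG was found in 2 of 22 recombination genes (9.09%). The share was 9.06% of genes higher in PGCs, 9.56% of those lower and 6.70% of those switched on. The E2f6 letters, searched on both strands and counted by gene likewise, were in 18.8% of all genes and 29.0% of those tested. They were in 7 of 16 genes of the synaptonemal complex list, 11 of 22 of the recombination list and 4 of 20 of the piRNA list. These shares describe letters in a window and were not tested, and a match is not evidence of binding. The 15 genes of the synaptonemal complex and piRNA lists with CACGTG are shown with up to 12 bases on each side, so that the word in capitals can be read in its surroundings. Where a gene held the word more than once, 1 copy is shown, and the window of Mov10l1 is cut at the edge of the 250 bases.
Sycp1 (chr3:102936177-102936206, minus strand): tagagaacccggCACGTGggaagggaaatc
Sycp3 (chr10:88459511-88459540, plus strand): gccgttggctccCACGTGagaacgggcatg
Syce2 (chr8:84872158-84872187, plus strand): cgtttcattcagCACGTGctcggggcgggg
Tex12 (chr9:50561344-50561373, minus strand): ccgcgagactgtCACGTGgctcgcgcgctg
4930447C04Rik (chr12:72917919-72917948, minus strand): actgtggcctacCACGTGgtgcgcggggtc
Hormad1 (chr3:95559608-95559637, plus strand): caaagggtgcgcCACGTGccagtgacagtt
Stag3 (chr5:138280327-138280356, plus strand): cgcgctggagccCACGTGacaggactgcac
Piwil1 (chr5:128736055-128736084, plus strand): aaaaccgccaccCACGTGgcagccaatcag
Mael (chr1:166238950-166238979, minus strand): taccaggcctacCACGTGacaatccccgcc
Mov10l1 (chr15:88982744-88982765, plus strand): ccttCACGTGctaaccgccaac
Tdrd1 (chr19:56826186-56826215, plus strand): tggggctgcgcgCACGTGggagtaaactgc
Tdrd9 (chr12:111971382-111971411, plus strand): ggtctccataaaCACGTGcctgtccaggtc
Pld6 (chr11:59787673-59787702, minus strand): ggggcgggctggCACGTGttgggcgcgcaa
Fkbp6 (chr5:135350128-135350157, minus strand): tgcgcctgccatCACGTGtgcagcgcgtgc
Stk31 (chr6:49395472-49395501, plus strand): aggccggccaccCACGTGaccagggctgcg
Between the copy shown and the start there were 88 bases in Sycp1, 58 in Sycp3, 51 in Hormad1, 164 in Stag3 and 217 in Mael.

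Genes of the repressor complexes did not move together. Max, the partner through which Mga binds E-boxes, was lower in PGCs (change -1.02 ± 0.09, limma adjusted p = 1.07e-06), with values of 2.11, 2.08 and 2.13 in PGCs and 3.03, 3.14 and 3.21 in MEFs. E2f6 was at 0.71, 0.78 and 0.58 in PGCs and at 2.37, 2.06 and 2.17 in MEFs, a change of -1.51 ± 0.10. Their partners in the variant polycomb complex PRC1.6 were higher, Mga by 3.23 ± 0.13, Pcgf6 by 3.34 ± 0.14 and L3mbtl2 by 2.53 ± 0.11. So were Setdb1, an H3K9 methyltransferase, at 3.15, 2.86 and 3.12 in PGCs and at -0.92, -0.78 and -0.95 in MEFs, and Suv39h1, another such enzyme, by 4.25 ± 0.22. Atf7ip, the cofactor of Setdb1, differed by 0.02 ± 0.10 and did not pass. In polycomb complex PRC2, Jarid2 was higher by 4.33 ± 0.12, Mtf2 by 3.17 ± 0.10, Ezh2 by 1.96 ± 0.11, and Eed, with 0.22 ± 0.08, did not pass. Kdm4d, a demethylase known from testis, had the largest change of this group at 7.49 ± 0.16. In all, 18 of 34 repressor genes were higher and 6 lower, and with median scaling 15 and 7.

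Genes of DNA methylation and its removal went both ways. Dnmt1 was at 0.12, -0.05 and 0.03 in PGCs and at -1.20, -0.98 and -1.36 in MEFs, a difference of 1.21 ± 0.17 that was no longer called with median or spike-in scaling or within the shared slide. Its guide Uhrf1 was 1.78 ± 0.17 higher, and the remodeller Hells 5.51 ± 0.20. The de novo enzyme Dnmt3b was at 0.14, 0.29 and 0.12 in PGCs and at -2.84, -2.89 and -3.02 in MEFs. Dnmt3a, with 0.08 ± 0.23, and Dnmt3l, with -1.22 ± 0.29, did not pass. Dnmt3l was called lower, however, with quantile, median and spike-in scaling and with normexp before quantile normalization. The dioxygenase Tet2 was higher by 2.12 ± 0.15, and Tet3 differed by -0.71 ± 0.15 without passing. Of base excision repair genes, Parp1, Lig3 and Xrcc1 were higher, with changes of 2.10 ± 0.08, 2.52 ± 0.13 and 2.35 ± 0.13, while Apex1 was lower. Of 24 genes, 9 were higher (37.5%) and 5 lower (20.8%), against 31.8% and 25.2% of all genes tested. With median scaling 8 were higher and 9 lower, and the median change turned from 0.23 to -0.25.

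Of 23 oocyte genes tested, 17 were higher, 1 was lower and 5 did not pass. Only 15 of the 23 were above background on all 3 MEF arrays, and the others entered the test through PGCs. With normexp before quantile normalization 13 were higher. Figla, the factor that turns on the zona genes, was at 2.77, 2.55 and 2.65 in PGCs, against -9.17, -10.14 and -10.21 in MEFs, at least 1565-fold apart. Other early regulators were higher too, Nobox by at least 146-fold, Sohlh1 by 6.80 ± 0.39 and Lhx8 by 4.66 ± 0.23. Among genes of the growing oocyte, the signal genes Gdf9 and Bmp15 were higher, by 1.82 ± 0.18 and by at least 10.5-fold. Npm2 was higher by 4.10 ± 0.15. The zona gene Zp3, with 0.86 ± 0.16, and Ooep, with -0.04 ± 0.25, were among the 5 that did not pass. Nlrp5, a maternal effect gene, was at 0.67, 0.91 and 0.92 in PGCs and at -3.15, -3.04 and -3.18 in MEFs. Pabpc1l was the member that was lower (-1.88).

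Of 18 genes known from the male germ line, 8 were higher (44.4%) and 3 lower (16.7%), against 31.8% and 25.2% of all genes tested. With quantile, median and spike-in scaling 7 were higher and 4 lower. On all 3 MEF arrays 13 of the 18 were above background. Tex14, of the intercellular bridges that join germ cells in both sexes, was at least 3363-fold higher, and Adad1 was higher by 9.99 ± 0.16. Nanos2, which drives the male fate, was at -6.72, -7.10 and -5.47 in PGCs and at -9.57, -9.08 and -7.46 in MEFs and did not pass, nor did the spermatid genes Prm1 (1.41 ± 0.61) and Acrv1 (0.25 ± 0.40), while Tnp1, also of spermatids, was higher by 1.11 ± 0.12, a call lost with median and spike-in scaling. MEFs were above background on 1 of 3 arrays for Nanos2 and on 2 for Acrv1. Lefty1 and Gfra1, a stem cell receptor, were lower (-6.04 and -5.40), with 2 and 1 PGC arrays above background, and so was Id4 (-1.94), the last call being lost within the shared slide.

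A larger share of X-linked genes than of the genes of any autosome was higher in PGCs. Of 676 X-linked genes tested, 44.7% were higher and 23.2% lower, against 31.3% and 25.2% of 16675 autosomal genes. The median level of X-linked genes minus that of autosomal genes was 0.01, -0.10 and -0.10 on the PGC arrays, against -1.54, -1.51 and -1.47 on the MEF arrays. The difference of 1.44 gave p = 0.1 in an exact two-sided permutation test, the smallest that 3 against 3 allows. The tested set held genes above background in PGCs alone, and 54 of the X-linked genes were switched on. The difference was 0.77 when only genes detected on all 6 arrays were kept (541 on the X). It was 1.18 after the other background correction and 1.39 within the shared slide. The PGCs were female and the MEFs male, so the number of X chromosomes and the cell type cannot be told apart. Kdm6a, which escapes X inactivation, was higher by 3.68 ± 0.17, but Eif2s3x, another escaping gene, was lower (-1.95), and Ddx3x and Kdm5c did not pass. With median and spike-in scaling Ddx3x was called lower.

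All 18 X-linked germ line genes tested were higher, with a median change of 7.51, or 6.36 with switched-on genes at their lower bound and 5.38 with normexp before quantile normalization, and 8 of them were above background on all MEF arrays. Rhox genes, a cluster of reproductive homeobox genes, were at 3.58, 3.35 and 3.48 in PGCs and -2.43, -2.81 and -2.79 in MEFs for Rhox5, and were higher by 9.29 ± 0.39 for Rhox9 and 8.86 ± 0.24 for Rhox6, both of them above background on 2 of 3 MEF arrays. Tex13b was higher by at least 4374-fold, Tex16 by at least 1688-fold and Mageb4 by at least 1094-fold. Xlr4a and Xlr4b, close copies whose probes may read each other's RNA, were both higher, Xlr4a by 10.30 ± 0.15. Xlr4b was at 5.08, 4.81 and 4.95 in PGCs and at -6.25, -6.11 and -5.82 in MEFs. Taf7l, the germ line form of a basal transcription factor subunit, was at 5.98, 5.70 and 5.78 in PGCs, against 0.90, 0.97 and 0.45 in MEFs.

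**Figure D3:**
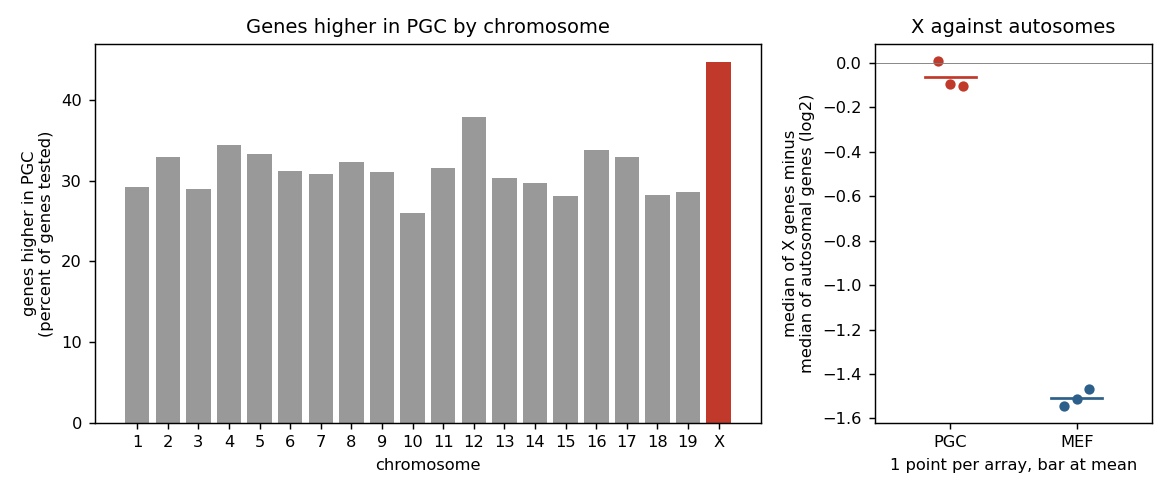
Left, percent of tested genes on each chromosome (horizontal axis) that were higher in PGCs, with the X in red at 44.7%. Right, median log2 level of X-linked genes minus that of autosomal genes on each array, with the mean as a bar, near 0 on PGC arrays and between -1.54 and -1.47 on MEF arrays.

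Imprinted genes, which are expressed from 1 parental copy in somatic cells and whose marks are erased in germ cells before this stage, showed no common direction. Among 20 maternally expressed genes, 6 were higher (30%) and 7 lower (35%). Among 26 paternally expressed genes, 4 were higher (15.4%) and 11 lower (42.3%). Of all genes tested, 31.8% were higher and 25.2% lower. Igf2, the fetal growth factor, was at -2.42, -3.29 and -3.09 in PGCs and at 1.91, 1.64 and 1.19 in MEFs. Meg3 (-4.08) and Plagl1 (-4.27) were lower, although another Plagl1 probe was 1.95 higher. Cdkn1c, an inhibitor of cell division, was at 3.49, 3.02 and 2.76 in PGCs and at 1.24, 1.02 and 0.94 in MEFs, and Kcnq1, of the same cluster, was at least 30.3-fold higher. Mkrn3 was higher by 4.37 ± 0.18 and Zdbf2 by 3.56 ± 0.19, while Ndn was lower (-3.30). Peg3, with 0.14 ± 0.33, did not pass.

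The fibroblast programme was lower in PGCs. All 24 genes of the fibroblast surface and cytoskeleton were lower, with a median change of -7.14. Thy1, the surface glycoprotein that marks fibroblasts, was at -5.71, -6.00 and -5.67 in PGCs, against 6.48, 6.21 and 6.39 in MEFs, the largest drop among named genes above background on all 6 arrays (-12.16 ± 0.23, limma adjusted p = 1.2e-11). S100a4, a calcium-binding protein, changed by -11.02 ± 0.12, the hyaluronan receptor Cd44 with -6.35 ± 0.14 and the intermediate filament vimentin (Vim) with -6.61 ± 0.23. Il1rl1, the receptor for interleukin 33, had the largest bound of the switched-off genes by its brightest probe, at least 4285-fold lower, although another of its probes was above background in PGCs, with a change of -6.74. The growth factor receptors Pdgfra and Pdgfrb were lower (-4.16 and -7.67).

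Extracellular matrix genes were lower in 44 of 46 cases. Col1a2, a chain of type I collagen, was at 0.91, 1.09 and 1.26 in PGCs and at 8.07, 7.27 and 7.40 in MEFs. Fn1, fibronectin, kept a level of 3.51, 3.42 and 3.45 in PGCs and was lower than in MEFs (-3.63). Lox, the enzyme that cross-links collagen, was at least 2429-fold lower and Col8a1 at least 945-fold lower, and tenascin (Tnc) at least 539-fold, each by its brightest probe. Another Tnc probe was above background on 1 PGC array, with a change of -8.08, and another Lox probe had a change of -10.23. Lama1, the laminin chain of early basement membranes, was the single gene higher, at 2.02, 1.96 and 1.82 in PGCs against -1.48, -1.66 and -1.09 in MEFs, while Lamb1 and Lamc1, which encode its partner chains, were lower (-2.98 and -2.69). Contractile and TGF-beta response genes were lower in 28 of 29 cases. Acta2, smooth muscle actin, was at -3.23, -2.82 and -2.70 in PGCs and at 7.86, 7.41 and 7.44 in MEFs, and the TGF-beta target Ccn2 was lower (-9.56). The ligand genes Tgfb1 (-5.98), Tgfb2 (-5.70) and Tgfb3 (-7.43) and the receptor gene Tgfbr2 (-6.83) were lower. The receptor Tgfbr1 was higher by 1.42 ± 0.10, a call lost with median and spike-in scaling.

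Transcription factors of mesenchyme were lower in 33 of 41 cases and higher in none, while 8 did not pass. Twist2 was at -4.92, -4.29 and -4.02 in PGCs and at 2.61, 3.02 and 3.03 in MEFs, and Prrx1 (-9.83), Snai2 (-6.86) and Zeb2 (-5.89) were lower. The homeobox genes of the Hox clusters, which record position along the body axis, were lower in 31 of 38 cases with a median change of -4.18, or -2.40 with normexp before quantile normalization. Hoxb2 was at least 208-fold lower, and Hoxa11, of limb and reproductive tract, was at -6.61, -6.73 and -6.81 in PGCs against 1.01, 0.69 and 0.85 in MEFs. Hoxd1 was an exception, with a mean of -1.60 in PGCs and not above background on any MEF array (at least 81.8-fold higher), while its neighbours Hoxd3 and Hoxd4 were lower (-1.76 and -2.17), calls that were lost within the shared slide. Hoxd8 was higher by 1.74 ± 0.13, and Hoxa4 by 1.62 ± 0.28, with the call of Hoxa4 lost with median and spike-in scaling.

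Of 25 epithelial and adhesion genes tested, 10 were higher (40%) and 3 lower (12%), against 31.8% and 25.2% of all genes tested. Under median scaling 8 were higher and 5 lower. Cdh1, E-cadherin, was at -2.19, -2.08 and -2.20 in PGCs and at least 48.3-fold above MEFs, Epcam was higher by 6.60 ± 0.37 (1 of 3 MEF arrays above background) and the epithelial factor Grhl2 by at least 122-fold by its brightest probe. Another Grhl2 probe, above background on 2 of 3 MEF arrays, had a change of 2.04. The mesenchymal cadherins Cdh2 (-2.52) and Cdh11 (-8.22) were lower. The keratins Krt8 and Krt18, with -0.82 ± 0.88 and -1.20 ± 0.74, did not pass. Krt8 was at -3.52, -2.86 and -4.38 in PGCs and at -2.91, -2.68 and -2.71 in MEFs, so that 1 PGC replicate lay within the range of the MEF replicates.

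Of 44 genes for ligands and their antagonists, 32 were lower in PGCs and 5 higher. Cxcl12, which guides migrating germ cells, was lower (-6.31), and so was Bmp4, which induces them (-5.62). Grem1, a BMP antagonist, was lower, at -7.79, -7.20 and -7.90 in PGCs, with 1 of 3 arrays above background, against 4.09, 4.07 and 4.28 in MEFs, and Fgf10 was at least 158-fold lower. Bmp7 was higher by 4.53 ± 0.16 and the Notch ligand Dll1 by 3.26 ± 0.23. Among 34 receptors, 4 were higher and 18 lower, Fgfr3 being higher by 3.12 ± 0.11, and Egfr (-5.12) and Osmr (-8.18) lower. The chemokine receptor Cxcr4, with -0.15 ± 0.23, did not pass.

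Interferon and antigen presentation genes were lower in 26 of 30 cases. B2m, the light chain of MHC class I, was at 0.88, 0.57 and 0.49 in PGCs and at 5.38, 5.48 and 5.55 in MEFs, and the peptide transporter Tap2 was lower (-5.08). The heavy chains ran the other way, H2-K1 at 5.73, 5.39 and 5.66 in PGCs and at 2.25, 2.62 and 2.72 in MEFs, and H2-D1 higher by 2.28 ± 0.16. These genes are polymorphic between strains, and strain differed between the groups, so a probe's fit to the allele and the level of RNA cannot be told apart. Of 24 cytokine, chemokine and acute phase genes, 17 were lower and 1 higher. Ccl2 (-8.94) and Csf1 (-9.05) were lower, and Il6 was at least 139-fold lower, at -1.24, -0.81 and -0.52 in MEFs. Leukocyte genes moved in the same direction, with 14 of 20 lower, but only 2 were called lower within the shared slide, where the median change of the list was the same as over all arrays (-2.34). The summed linear level of 8 leukocyte markers was 1.83 to 3.13 on PGC arrays and 6.54 to 10.2 on MEF arrays, with Lyz2, the macrophage lysozyme, at -6.02, -5.65 and -6.59 in PGCs and at -0.38, -1.12 and 0.38 in MEFs. The part of such cells in the cytokine values was not tested.

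Of 36 proliferation genes, 16 were higher and 6 lower, but with median scaling 8 and 8 and with spike-in scaling 8 and 7, so that no direction held for the list. Bub1, a checkpoint kinase, was at 3.98, 3.66 and 3.84 in PGCs and at -0.82, -0.87 and -1.38 in MEFs, Mcm5 was higher by 3.28 ± 0.13 and the licensing inhibitor Gmnn by 2.82 ± 0.13. The mitotic cyclin Ccnb1 (-2.17) and Rrm2 (-2.48) were lower, and Aurkb was not above background on any PGC array and at least 7.52-fold lower. Of 34 genes of cyclins, their inhibitors and p53, 6 were higher, 17 lower and 11 did not pass. The D-type cyclins and the inhibitor genes Cdkn1a and Cdkn2b were lower as well, unlike Cdkn1c. Ccnd2 was at -1.68, -1.56 and -2.44 in PGCs and at 5.35, 5.09 and 5.18 in MEFs, and Ccnd1 (-5.83) and Ccnd3 (-3.12) were lower. The p53 target Cdkn1a was at -3.47, -3.39 and -3.54 in PGCs and at 4.20, 4.28 and 4.33 in MEFs, and Cdkn2b was lower (-5.89). Trp53 itself was lower (-3.85), as were its targets Phlda3 (-6.32), Ccng1 (-5.22), Fas (-7.89) and Bax (-2.64). Trp63, the family member known as the guardian of oocytes, was at 2.94, 2.89 and 2.93 in PGCs and at 1.02, 0.93 and 0.76 in MEFs.

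Immediate-early genes, which serum induces, were lower in 15 of 24 cases and higher in 2. Fosl1 (-6.04) and Ier3 (-6.49) were among those lower. Fos did not pass, at -0.39, -1.12 and -0.71 in PGCs and at -2.10, -2.07 and 0.88 in MEFs, where replicate 3 stood above the others. For Egr1, which did not pass either, the same MEF replicate was at 4.05, and the other MEF replicates were at 1.80 and 1.88.

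Glycolysis genes were lower in 21 of 24 cases, with a median change of -3.25. Ldha, which makes lactate, was at -1.58, -1.51 and -1.90 in PGCs and at 4.32, 4.23 and 4.33 in MEFs, and Hk1, Tpi1 and Aldoa were lower (-4.92, -5.11 and -4.30). Pfkm, the muscle form of phosphofructokinase, was the one higher, by 1.49 ± 0.10, whereas the liver form Pfkl was lower (-4.19). Mitochondrial respiration genes were higher in 9 of 27 cases (33.3%, near the 31.8% of all genes tested) and lower in 1. With median and with spike-in scaling 3 were higher and 3 lower. Cyct, the germ line cytochrome c, had the largest change among them at 8.90 ± 0.26 with 1 of 3 MEF arrays above background, while somatic Cycs, with -0.80 ± 0.14, did not pass. Cholesterol synthesis genes were lower in 20 of 23 cases and higher in none, among them Cyp51 (-4.33) and Msmo1 (-4.32). Cytosolic ribosomal protein genes did not pass in 31 of 34 cases, with a median change of 0.19 that was -0.29 with median scaling. Rpl10l, an autosomal copy of X-linked Rpl10 known from meiosis, was higher by at least 2841-fold by its brightest probe, at 3.55, 3.56 and 3.45 in PGCs, and another of its probes was above background on 2 of 3 MEF arrays. Rpl10 itself differed by 0.19 ± 0.18.

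A few more genes stood out by size alone. Among named genes above background on all 6 arrays, the 10 with the largest increase included Gpat2, a mitochondrial acyltransferase needed for piRNAs, with a change of 12.54 ± 0.12, Dmrtc2, a factor of pachytene germ cells in the testis, with 10.59 ± 0.39, and Kdf1, known from skin, with 10.48 ± 0.44. The 10 with the largest decrease included Ly6c1, a surface antigen, with -11.36 ± 0.17, the annexins Anxa8 and Anxa1, and Inhba, the activin subunit, with -10.64 ± 0.23. Gpnmb, a membrane glycoprotein, and Col10a1, a collagen of growth plate cartilage, were not above background on any PGC array and at least 2276-fold and 1014-fold lower. Replicates lay close together in most of these genes, but Anxa1 was at -4.13, -3.64 and -5.38 in PGCs, against 6.70, 6.06 and 6.41 in MEFs.

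**Figure D4:**
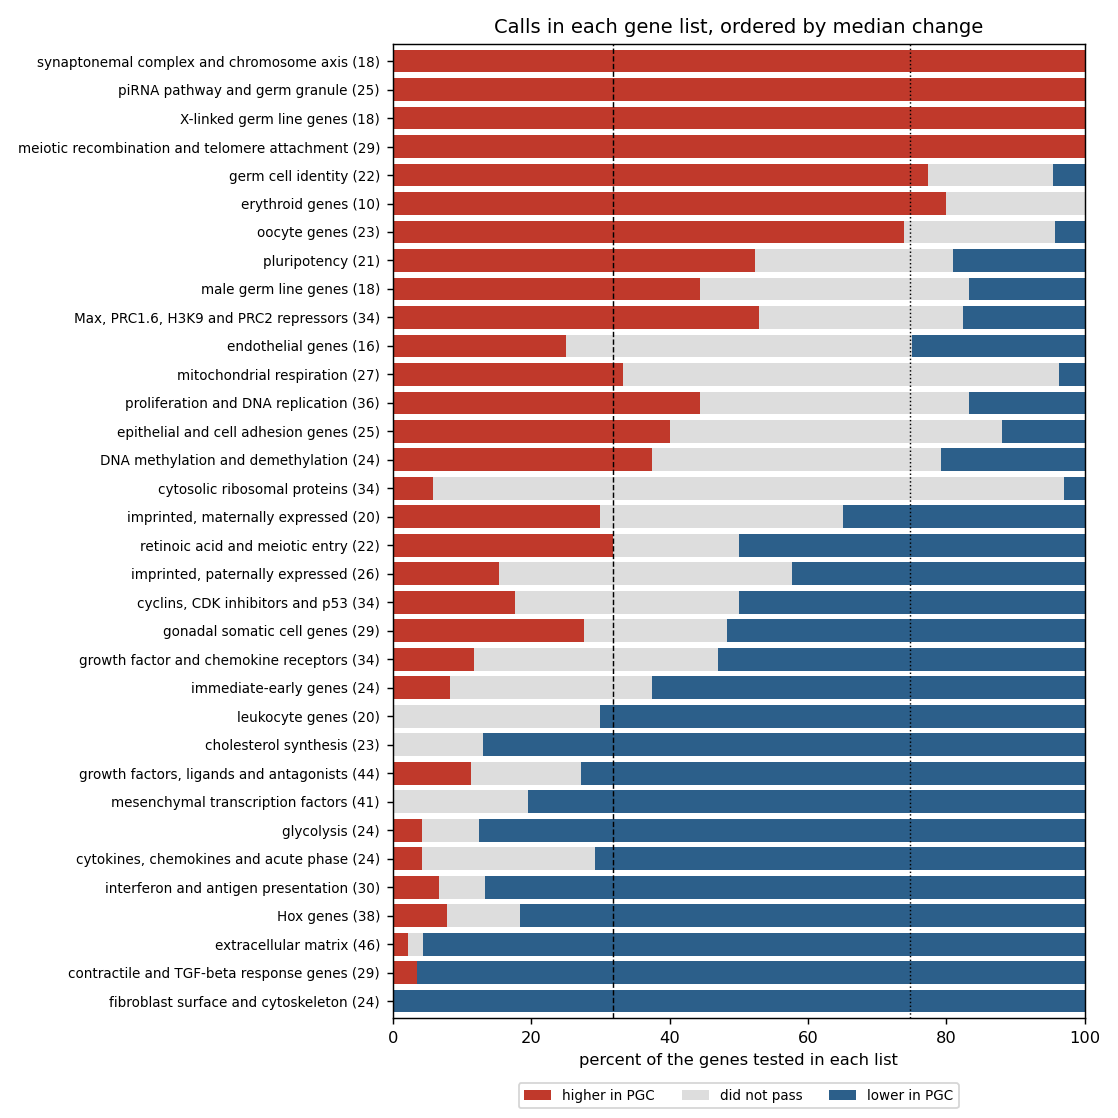
Percent of the tested genes of each list (number in brackets) that were higher in PGCs, did not pass or were lower in PGCs, with lists ordered from the highest median change at the top. The list of X inactivation and Y genes is not drawn. The dashed line marks the 31.8% of all genes that were higher, and the distance from the dotted line to the right edge the 25.2% that were lower.

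Markers of other cells of the gonad were measured beside the germ cell genes. Of 29 gonadal somatic genes, 8 (27.6%) were higher in PGCs and 15 (51.7%) lower, against 31.8% and 25.2% of all genes tested. The counts were 5 and 15 with median and with spike-in scaling and 5 and 11 within the shared slide. Amhr2, the receptor for anti-Müllerian hormone, was at 1.53, 1.74 and 1.15 in PGCs and at -4.95, -4.72 and -5.05 in MEFs, Wnt6 was higher by 6.06 ± 0.32 and Gata4 by 3.62 ± 0.42. Foxl2, which defines granulosa cells, did not pass, at 4.57, 4.38 and 4.41 in PGCs and 4.27, 4.24 and 4.30 in MEFs. Fst and Wnt4 were lower (-4.43 and -4.26). The 2 Sertoli cell markers went opposite ways, with Sox9 lower (-6.02) and Amh called higher. The 10 granulosa and gonadal soma markers summed to 26.6 to 30.8 on PGC arrays and 33.8 to 37.0 on MEF arrays, a linear sum in which Foxl2 alone made up most of the value. Erythroid genes were higher in 8 of 10 cases, and 3 more had a probe but were not tested. Only 5 of the 10 were above background on all 3 MEF arrays, and the others entered the test through PGCs. With normexp before quantile normalization 4 were higher. Hba-a2, an adult globin whose probe may also read its copy Hba-a1, was at 2.35, 2.92 and 2.01 in PGCs and at -3.06, -2.76 and -2.96 in MEFs, and Hbb-bt was at least 439-fold higher. The summed level of erythroid markers above background was 1.39 to 2.44 on PGC arrays and 0.0741 to 0.109 on MEF arrays. Of 16 endothelial genes, 4 were higher and 4 lower (25% each, against 31.8% and 25.2% of all genes tested). In bulk samples such as these, fewer cells of a type and less RNA per cell cannot be told apart, and the part of other cells in the PGC values was not tested.

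Among the genes called lower within the shared slide, those with the largest spread between PGC arrays were Il1rl2, Galnt5, Tlr4, Avpr1a and Lrrtm3. Avpr1a, a vasopressin receptor, was at -7.45, -10.16 and -10.19 in PGCs against -0.38, -0.09 and -0.29 in MEFs, and Il1rl2 was at -4.84, -8.80 and -8.40 against -5.70, -5.90 and -5.31. In both genes PGC replicate 1, which lay on another slide than replicates 2 and 3, was the only PGC array above background, and Il1rl2 did not pass over all arrays. Among those called higher within the slide, Cdx2, a homeobox factor, was at -3.94, -5.72 and -5.16 in PGCs, at least 8.08-fold above MEFs, and 3 of the 5 most variable were olfactory receptor genes (Olfr1344, Olfr112 and Olfr1500).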

How the data were processed

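RNA of 3 E15.5 female PGC samples and 3 MEF samples was labelled with 1 dye and hybridized to Agilent mouse arrays. The authors deposited the scanner's intensities per spot (Agilent Feature Extraction), background-subtracted but not normalized between arrays, and a flag for each spot that was not distinguishable from background, saturated or uneven. They also deposited a value table of log2 values, centred per probe. Its columns for PGC replicates 2 and 3 did not match their scanner files (r = 0.105 and 0.551 over 25492 probes), and it served only as an alternative.

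Of 39429 probes that are not controls, 83 with uneven spots were left out, and 25986 of the remaining 39346 were named through RefSeq accessions. Signals were taken to log2 minus the array's 75th percentile (1147 to 2925, where the background signal had a median between 23.0 and 33.5). Precision is limited by having 3 arrays a group. Differences were fitted with limma 3.58.1 in R 4.3.3 over all 12 arrays of 4 groups, without covariates, with Benjamini-Hochberg adjustment over 17362 genes, and the test was checked on simulated data. In 35 lists there were 956 genes, of which 926 have a probe and 907 were tested. The arrays were chosen by title, and the gene lists with earlier results of these data known. Besides list members, the genes named are the 10 with the largest change on each side, the 5 with the largest lower bound and the 5 with the largest PGC spread. Predicted genes were left out of this rule. Alternatives were other scalings, background corrections, filters, probe rules, blocks and thresholds, and leaving out each array. PGC and MEF replicate numbers did not pair the samples. Some genes of the lists are not reported here by name.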

Additional observations from a re-analysis of the deposited data

Results flagged for a closer look

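Among 10025 tested probes without a gene name, 605 were above background on all 3 PGC arrays and on no MEF array and were called higher, which is a signal in probes that no comparison above used. Of the unnamed probes, 32.3% were higher and 11.8% lower in PGCs, against 32.0% and 24.7% of 22794 named probes tested one by one.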

How the results depend on the processing

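The numbers of genes higher in PGC and of genes lower in PGC stayed within 1.5 times 5518 and 4368 under most alternatives. With every probe as a feature they were 10520 and 6816, and at a 4-fold threshold 3222 were higher. Without 1 array in turn, 5259 to 5382 genes were higher and 4205 to 4277 lower, while genes switched on in PGC numbered 500 to 624 and genes switched off in PGC 223 to 259. The X minus autosome median difference of 1.44 was 1.18 with normexp background correction before quantile normalization and 0.77 with the filter on both groups. With the replicate number as a block, 5443 genes were higher and 4301 lower. The deviations of same-numbered PGC and MEF arrays correlated at 0.36, 0.02 and 0.11, so the numbers were not taken as pairs. Of 927 named or listed genes, 129 lost and 71 gained a call under some alternative. Fgfr4 alone turned, at 0.53 with the mean of its probes against -1.44. The deposited log2 values, in which PGC replicate 1 was the only PGC column that matched its scanner file and entered alone, assumed to vary like the other groups, gave 4394 higher and 4101 lower. Normexp before quantile normalization brought the median change of the germ cell identity, synaptonemal complex, recombination, piRNA, oocyte, male and X-linked germ line lists nearer to 0. This setting adds an offset of 50 to every signal, and such a constant alone makes changes from dim signals smaller. Signals near background limit the precision of the largest changes, and a lower bound is given where no array of the dimmer group was above background.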

Other observations

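Several genes of the PGC programme are germ line copies of genes that every cell uses, and for these the somatic copy was looked up after the values had been seen. In the cohesin ring, Smc1b was higher by 14.17 ± 0.16 (2 of 3 MEF arrays above background) while Smc1a differed by -0.08 ± 0.08 and did not pass. Rad21, the somatic kleisin, was lower (-1.10) where Rec8 was 3.37 ± 0.25 higher, and Stag2 was lower (-1.08) where Stag3 was 11.08 ± 0.19 higher. The RNA-binding Ybx2 was higher by 5.78 ± 0.16 and Ybx1 lower (-2.65). Tktl1, a relative of transketolase, was higher by 10.50 ± 0.31, with 2 of 3 MEF arrays above background, and Tkt was called lower. Tuba3a, an alpha tubulin, was higher by 10.69 ± 0.25 and Tuba1b lower (-3.95). Other pairs did not part in this way. Taf7 was higher by 4.04 ± 0.20 together with Taf7l, Gpam was higher by 1.38 ± 0.11 together with Gpat2 (12.54 ± 0.12), a call lost with median and spike-in scaling, and Pgk2 did not pass while Pgk1 was lower (-3.75). The copies are similar in sequence, and whether a probe also reads the other copy was not tested.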
